A study of Mus musculus with 27 samples.

Results

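Small RNA of the cytoplasm was compared between mouse primary cortical neurons (mCtx) and mouse embryonic stem cells (mESC) over all 1013 entries of the authors' small RNA table, in 6 of the 27 libraries of the series. The 3 mCtx libraries came from primary cortical neurons kept for 5 days on dishes coated with poly-L-lysine. The 3 mESC libraries came from the E14 line, grown on gelatin in medium with LIF, the cytokine that keeps these cells undifferentiated, so the mESC group is 1 cell line. The labels give no allele or agent beyond the culture media for either group, and they do not name the animals behind the neurons. The series also holds a neural progenitor line (mNPC) kept in EGF and FGF, and each of the 3 cell types was separated into chromatin, nucleoplasm and cytoplasm with 3 biological replicates per fraction. RNA under 200 nt was selected, ribosomal RNA was depleted, libraries of 120 to 160 bp were cut from a gel, and 100 bp single reads were taken. The labels call the replicates biological without saying how the cultures were separated, so the p-values below measure only how much these libraries varied, which may be technical. A dish of primary neurons can hold other cells, and in such bulk samples fewer cells of a type and less RNA per cell cannot be told apart.

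MicroRNAs (miRNAs) are RNAs of about the length of a short oligonucleotide that guide Argonaute proteins to messenger RNAs, mostly through the seed, bases 2 to 8 from the 5′ end. They are cut from hairpin precursors, first in the nucleus by Drosha and then in the cytoplasm by Dicer, so the mature form arises in the cytoplasm. Embryonic stem cells are known for the miR-290 to miR-295 cluster, which helps to sustain their rapid cell cycle and opposes let-7, and neurons are known for let-7, miR-9, miR-124, miR-125b and miR-128, which favour differentiation.

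Of the 1013 entries, 453 were mature miRNAs, 30 were miRNA hairpins, 239 were small nucleolar RNAs (snoRNAs), 193 were tRNAs, 34 were tRNA fragments, 27 were small nuclear RNAs (snRNAs), 22 were ribosomal RNAs (rRNAs) and 15 were Piwi-interacting RNAs (piRNAs). Values are reads per 1000000 (RPM) as the authors deposited them. Coordinates are those of the table with 1 added to each start, on GRCm38, since 285 of the 288 entries with an Ensembl identifier matched that build's GENCODE M21 annotation. The mature sequences shown here are those of RefSeq on GRCm38.p6, which held 366 of the 420 mature names.

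The sequences below are shown because the comparison turns on their seeds, written in capitals. Each cell type had a most abundant mature miRNA of its own, miR-181a-5p in mCtx cytoplasm and miR-182-5p in mESC cytoplasm.
miR-181a-5p: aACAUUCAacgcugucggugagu
miR-182-5p: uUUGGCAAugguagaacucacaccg
In the miR-290 to miR-295 cluster, 3 of the 3p arms share the seed AAGUGCU and 3 of the 5p arms share the seed CUCAAAC, while miR-293-3p has a seed of its own.
miR-291a-3p: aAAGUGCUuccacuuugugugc
miR-294-3p: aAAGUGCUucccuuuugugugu
miR-295-3p: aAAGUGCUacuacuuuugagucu
miR-290a-5p: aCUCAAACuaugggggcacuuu
miR-292a-5p: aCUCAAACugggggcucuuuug
miR-293-5p: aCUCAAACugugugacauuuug
miR-293-3p: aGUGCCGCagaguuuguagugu
The 5p arms of miR-17, miR-20a and miR-106a, from the miR-17/92 cluster and its paralogue on the X chromosome, carry the same run of letters moved by 1 base, in the seed AAAGUGC.
miR-17-5p: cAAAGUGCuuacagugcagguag
miR-20a-5p: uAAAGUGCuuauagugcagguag
miR-106a-5p: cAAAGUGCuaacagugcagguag
The let-7 members and miR-98 share the seed GAGGUAG, and the other miRNAs shown after them each have a seed of their own.
let-7b-5p: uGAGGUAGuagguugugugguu
let-7c-5p: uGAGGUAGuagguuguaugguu
let-7f-5p: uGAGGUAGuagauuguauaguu
let-7g-5p: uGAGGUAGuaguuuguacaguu
miR-98-5p: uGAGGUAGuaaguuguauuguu
miR-9-5p: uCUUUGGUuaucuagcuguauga
miR-125b-5p: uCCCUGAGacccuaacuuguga
miR-128-3p: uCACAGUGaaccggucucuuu
miR-132-3p: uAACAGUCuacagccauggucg

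Across the table, 687 entries were above 0 in at least 1 of the 6 libraries and 229 in all 6. Depth limits what a 0 means, because no library held a value between 0 and a floor of its own, which was 18.6, 9.31 and 8.40 RPM in the mCtx libraries and 27.6, 42.4 and 31.5 RPM in the mESC libraries. Taking that floor as 10 reads, 76.2 to 85.3% of the lower miRNA and snoRNA values of a library were whole reads within 0.02 of a read, against 4.12 to 19.4% of tRNA values and 52.7 to 58.1% of all values. On that reading 1000000 RPM stood for 536662, 1073970 and 1190950 reads in mCtx and for 362969, 235584 and 317630 reads in mESC. An entry listed at 0 is therefore under a limit that was higher in every mESC library than in any mCtx library. The libraries of 1 group correlated at Pearson's r of 0.860 to 0.965 in mCtx and 0.883 to 0.917 in mESC on the log2(RPM + 1) scale across entries, against 0.546 to 0.568 between the groups. The mCtx library 1 stood apart from the other mCtx libraries, with r of 0.860 and 0.861 to them against 0.965 between them. Calls on named entries that change without it are therefore given both ways, and so are some of the counts.

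Differences were tested with limma on log2(RPM + 1) over 851 entries, those that reached 1 RPM in 3 or more of the 27 libraries, with 1 spread per entry taken over all 9 groups, and an entry was called at a Benjamini-Hochberg adjusted p of at most 0.05. Of the 851 entries tested, 179 (21.0%) were called higher and 208 (24.4%) were called lower in mCtx, together 45.5%. Without mCtx library 1 the counts were 189 higher and 181 lower. In 109 of the entries called higher all 3 mESC libraries were listed at 0, and in 84 of those called lower all 3 mCtx libraries were. Of the 229 entries listed in every one of the 6 libraries, 47 rose and 73 fell in mCtx by this call. Of the 401 mature miRNA entries tested, 137 (34.2%) were called higher and 112 (27.9%) lower. The mCtx and mESC libraries did not overlap in 370 entries (43.5%), 152 that were higher in mCtx (17.9%) and 218 that were lower (25.6%). Raising every value below 59.1 RPM, the highest floor of the 27 libraries, to that floor left 124 higher and 187 lower. Setting each library's median to the same level gave 90 higher and 147 lower and moved the median of all differences by -0.97 on the log2 scale. Medians were taken over the 851 entries with 0s included, and mCtx library 1 and mESC library 2 had only 383 and 401 entries above 0. Their medians were therefore 0, so this setting also carries how many entries a library lists at 0. The standard error of miR-30a-5p was 1.31 in it, against 0.22 with listed totals equalised. Whether calls lost in it reflect scaling or the 0s was not tested. Differences below are on the scale of log2(RPM + 1), mCtx minus mESC, and none is given where a whole group is listed at 0.

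miRNAs made up most of the listed reads in both cell types. Mature miRNAs took 88.6, 87.7 and 88.0% of the listed RPM in mCtx and 78.1, 82.6 and 86.7% in mESC. rRNA took 0, 0.00240 and 0.0469% in mCtx, against 2.24, 3.54 and 3.09% in mESC. The 5p arms took 68.9 ± 0.559% in mCtx and 49.2 ± 2.99% in mESC, and the 3p arms took 19.2 ± 0.848% in mCtx and 33.2 ± 1.55% in mESC (SD, n = 3 each). The libraries of mCtx and mESC did not overlap for mature miRNA, rRNA, tRNA fragments, snoRNA, snRNA, piRNA and both arms, each with an exact two-sided permutation p of 0.1, the smallest that 20 assignments of 3 against 3 allow, and an adjusted p of 0.125 over the 10 shares. For tRNA, at 10.6, 11.9 and 11.6% in mCtx and 18.1, 12.3 and 8.53% in mESC, and for hairpins, at 0.325 ± 0.221% in mCtx and 0.213 ± 0.0100% in mESC, the libraries overlapped. Where genomic copies of one name were averaged, the difference in 5p arms was 9.71 percentage points in place of 19.7, since miR-181a-5p, miR-9-5p and others are listed once for each genomic copy with the same reads. With copies averaged so, mature miRNA overlapped, at 83.7, 82.6 and 83.3% in mCtx and 77.2, 81.9 and 86.2% in mESC (exact permutation p = 0.7), and hairpins no longer did (exact permutation p = 0.1).

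**Figure D1:**
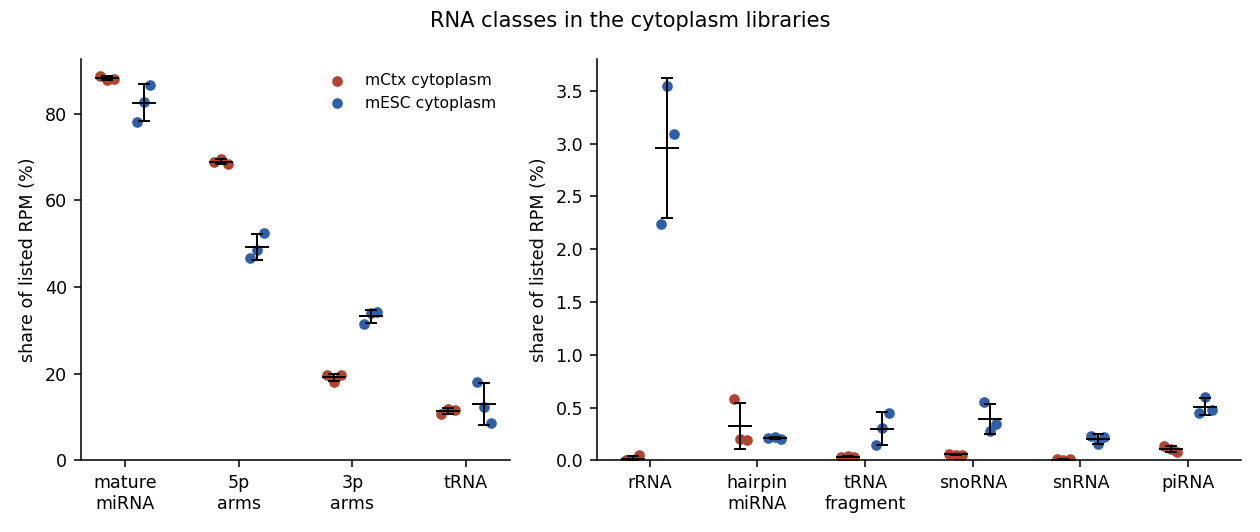
Share of the listed RPM (%) taken by each RNA class in the 3 mCtx and the 3 mESC cytoplasm libraries, with points for libraries and bars for mean and SD; the left and right panels have different scales. The 5p arms stand at 68.4 to 69.5% in mCtx and at 46.6 to 52.5% in mESC, and rRNA stays below 0.05% in mCtx.

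A different miRNA stood at the top of each profile. miR-181a-5p, a miRNA of brain and lymphocytes, had 102789, 115769 and 117083 RPM in mCtx, against 70.3, 0 and 36.2 RPM in mESC (chr1:137966468-137966490, plus strand; limma adjusted p = 6.68e-08). That was 18.04 to 20.40% of the mature miRNA in mCtx. miR-182-5p, of the sensory and pluripotency-linked miR-183/96/182 cluster, had 3000, 1311 and 1307 RPM in mCtx, against 171596, 150140 and 183778 RPM in mESC (chr6:30165962-30165986, minus strand), and its log2 difference was -6.60 ± 0.85 (limma adjusted p = 1.56e-06). It made up 23.3 to 26.6% of the mature miRNA in mESC. In both cell types the 10 most abundant names held most of that class, at 53.7 to 60.2% in mCtx and 55.1 to 58.9% in mESC.

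Below these, the 10 highest entries of mCtx were the copies of miR-181a-5p and miR-9-5p, then miR-127-3p, miR-22-3p, miR-30d-5p, let-7i-5p and miR-26a-5p. The 10 highest of mESC were miR-182-5p, miR-22-3p, miR-295-3p, miR-127-3p, miR-541-5p, miR-293-5p, miR-92a-3p, miR-191-5p, miR-183-5p and miR-411-5p. miR-22-3p and miR-127-3p stood on both lists. miR-22-3p, from the Mir22hg transcript, had 15969, 33259 and 35966 RPM in mCtx, against 54881, 49235 and 61084 RPM in mESC (log2 difference -1.04 ± 0.25 SE, limma adjusted p = 0.00182), and the call was lost when library medians were equalised (adjusted p = 0.267) or the 6 libraries were fitted alone (adjusted p = 0.0807). miR-127-3p, an imprinted miRNA antisense to Rtl1, overlapped between the groups with 35014, 24786 and 27717 RPM in mCtx and 17236, 29205 and 27608 RPM in mESC. miR-191-5p, present in most tissues, also overlapped, with 10429, 15640 and 14324 RPM in mCtx and 14470, 15256 and 19091 RPM in mESC, and was called lower by limma with miRNA totals or listed totals equalised (adjusted p = 0.000677 and 0.0107) and without mCtx library 2 (0.0467).

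**Figure D2:**
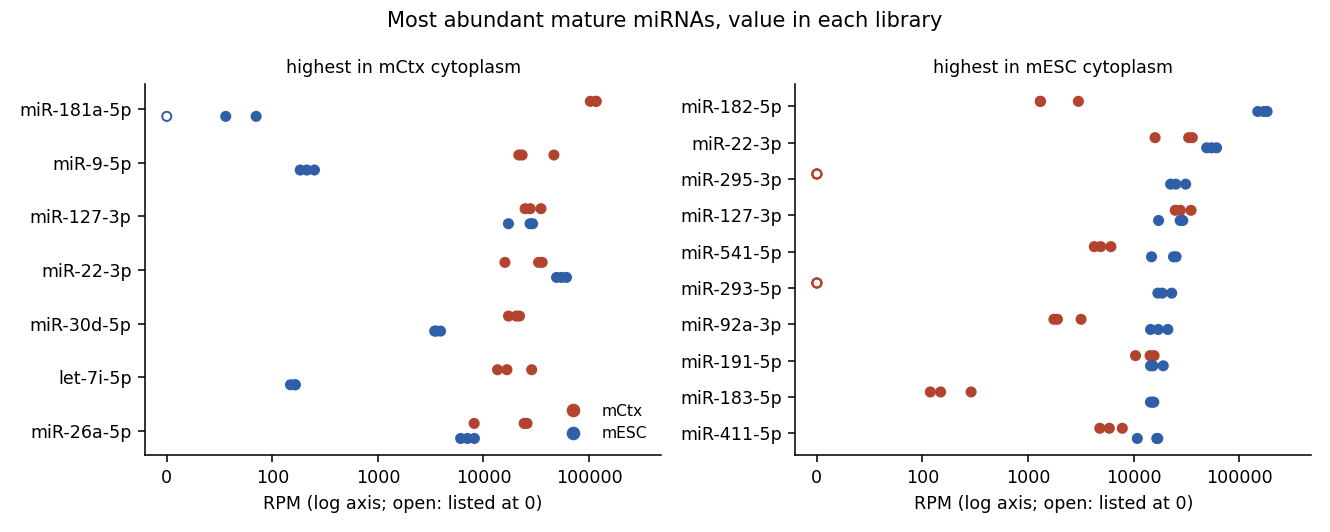
RPM on a log axis of the most abundant mature miRNAs, ranked by mean in mCtx (left) and in mESC (right), with genomic copies of one name shown once; each point is a library and open circles mark libraries listed at 0. miR-181a-5p lies at 102789 RPM or more in mCtx and miR-182-5p at 150140 RPM or more in mESC, while miR-127-3p overlaps.

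All members of the miR-290 to miR-295 cluster were listed at 0 in the 3 mCtx libraries, and 13 of the 14 tested were called lower, the other being a hairpin at 0 in all 6 libraries. The mature forms summed to 77971, 79890 and 93945 RPM in mESC. miR-295-3p was the highest in mESC, with 25104, 22417 and 31121 RPM (chr7:3220815-3220837, plus strand, opposite an exon of Nlrp12; limma adjusted p = 3.82e-06). miR-293-5p had 16981, 18673 and 22958 RPM in mESC (adjusted p = 2.39e-21), and miR-292a-3p, miR-293-3p and miR-292a-5p averaged 12348 ± 1393, 11449 ± 1867 and 9332 ± 1333 RPM there (SD, n = 3). The named stem cell miRNAs miR-291a-3p and miR-294-3p were far lower within the same cluster, at 1659 ± 220 and 386 ± 51.4 RPM in mESC. Levels of different miRNAs in such libraries also carry the ligation preference of each sequence, so this order is one of reads. The related miR-302a-3p was listed at 0 in mCtx and at 30.3, 59.4 and 0 RPM in mESC, near the floors, and its call (limma adjusted p = 0.0109) was lost when values were raised to a common floor (0.462) or without mESC library 1 or 2 (0.0619 and 0.0885).

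The miR-183/96/182 cluster and the miR-200 family moved the same way. miR-183-5p had 289, 119 and 149 RPM in mCtx, against 15139, 14449 and 15534 RPM in mESC (log2 difference -6.44 ± 0.26 SE, limma adjusted p = 6.64e-15), and miR-96-5p was listed at 0 in mCtx, against 1840, 1706 and 894 RPM in mESC. All 4 tested members were called lower, and all 4 were so with medians equalised. The miR-200 family, which keeps epithelial identity by repressing Zeb1 and Zeb2, was at 0 in mCtx in each of its 6 tested entries, and 5 were called lower. miR-200b-3p had 3110, 2755 and 2849 RPM in mESC, miR-429-3p had 769, 760 and 913 RPM and miR-141-3p had 598, 531 and 756 RPM. miR-205-5p, another epithelial miRNA outside the lists, was at 0 in mCtx, against 1383, 1320 and 1495 RPM in mESC (limma adjusted p = 4.64e-19).

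The miR-17/92 clusters, which promote proliferation, fell in 19 of 25 tested entries and rose in 1. The single entry called higher, miR-93-3p, had 0, 19.6 and 20.2 RPM in mCtx and was at 0 in mESC, below the mESC floors, and it was not called when values were raised to a common floor. Mature forms of the 3 clusters summed to 11304, 8917 and 8947 RPM in mCtx, against 49837, 44837 and 39765 RPM in mESC. Differences of members ranged widely within a genomic cluster, and no difference between the clusters was tested. From the X-linked paralogue, miR-106a-5p and miR-20b-5p were at 0 in mCtx, against 1019 ± 301 and 1053 ± 225 RPM in mESC, and miR-363-3p had 0, 0 and 9.24 RPM in mCtx, against 2813, 3162 and 2541 RPM in mESC. From the chromosome 14 cluster in Mir17hg, miR-17-5p had 271, 757 and 743 RPM in mCtx, against 1843, 2084 and 1706 RPM in mESC (log2 difference -1.81 ± 0.28 SE), and miR-20a-5p had 68.0, 148 and 159 RPM in mCtx, against 1022, 1138 and 985 RPM in mESC (-3.15 ± 0.32). miR-17-5p was no longer called by limma with medians equalised (adjusted p = 0.117). From the cluster with miR-25 and miR-93 on chromosome 5, miR-25-3p had 6092, 3245 and 3275 RPM in mCtx, against 10337, 7776 and 8085 RPM in mESC (log2 difference -1.11, limma adjusted p = 0.00144), a call lost with medians equalised (adjusted p = 0.281). Its other arm, miR-25-5p, had 0, 16.8 and 0 RPM in mCtx, against 201, 187 and 233 RPM in mESC (-6.31).

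miR-92a-3p is listed at both genomic sites of the mature sequence with different values. At chr14:115044476-115044496 it had 3181, 1897 and 1758 RPM in mCtx, against 21090, 17119 and 14479 RPM in mESC (log2 difference -2.98 ± 0.37 SE, limma adjusted p = 1.09e-06). At chrX:52741854-52741874 it had 61.5, 25.6 and 22.7 RPM in mCtx, against 9293, 9186 and 6316 RPM in mESC (-7.90 ± 1.77, limma adjusted p = 0.00093). The copies thus differ in level and in the size of the difference, and since both give one mature sequence their reads cannot be assigned with certainty.

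The miRNAs of the miR-23/24/27 clusters were lower in 7 of 9 tested entries and higher in none. miR-27a-3p had 50.3, 94.4 and 68.9 RPM in mCtx, against 2104, 2383 and 3724 RPM in mESC (chr8:84208727-84208747; log2 difference -5.25 ± 0.37 SE, limma adjusted p = 1.53e-10). Its paralogue miR-27b-3p had 4129, 5338 and 5591 RPM in mCtx, against 17280, 12747 and 13217 RPM in mESC (-1.52 ± 0.23), a limma call lost with medians equalised (adjusted p = 0.155). Both arms of miR-423 were lower, with 231, 411 and 298 RPM in mCtx, against 2672, 2942 and 2783 RPM in mESC for the 5p arm (-3.19 ± 0.31, limma adjusted p = 2.54e-08).

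let-7 rose throughout its mature 5p forms. let-7 and miR-98 together summed to 84773, 59486 and 58020 RPM in mCtx, against 1201, 954 and 1550 RPM in mESC. Of 18 tested entries 14 were called higher and none lower, and the 4 not called were 3 of the 3p arms, at most 18.5 RPM, and let-7j, which was at 0 in all 6 libraries. Among those called, let-7i-3p and let-7f-2-3p had no more than 17.6 and 63.8 RPM in mCtx and were at 0 in mESC. Without mCtx library 1, 15 of the 18 entries were called higher. let-7i-5p had 28620, 13590 and 16685 RPM in mCtx, against 165, 149 and 164 RPM in mESC (log2 difference 6.87 ± 0.25 SE, limma adjusted p = 1.33e-15). let-7f-5p and let-7c-5p averaged 19346 ± 3870 and 15694 ± 4417 RPM in mCtx, against 590 ± 141 and 165 ± 40.1 RPM in mESC. let-7b-5p and miR-98-5p were at 0 in every mESC library, with 768 ± 73.3 and 915 ± 267 RPM in mCtx. let-7g-5p had the smallest difference of the named members, at 4.27 ± 0.31, and its call was lost with medians equalised (adjusted p = 0.0613).

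miR-9, which drives neural progenitors towards neurons, was higher in all 6 of its entries, 3 genomic copies of each arm. The 5p arm, as listed for chr13:83738821-83738843, had 46393, 23174 and 21487 RPM in mCtx, against 184, 212 and 251 RPM in mESC (log2 difference 7.05 ± 0.91 SE, limma adjusted p = 1.66e-06). The 3p arm had 117, 485 and 410 RPM in mCtx and was at 0 in mESC. Among the mCtx libraries, library 1 was highest for the 5p arm and lowest for the 3p arm.

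The list of neuronal miRNAs was higher in mCtx in each of its 23 tested entries, of 26 entries and 18 names, among them copies that share reads, and 16 of the 23 were at 0 in all mESC libraries. The list held 22 calls without mCtx library 1, and 18 each with medians equalised and with values raised to a common floor. miR-128-3p, a regulator of neuronal excitability made from 2 intronic genes, had 6107, 14702 and 15421 RPM in mCtx, against 227, 284 and 315 RPM in mESC at the chromosome 9 site in an intron of Arpp21 (log2 difference 5.35 ± 1.00 SE, limma adjusted p = 0.000151). miR-132-3p, which is induced by neuronal activity, had 2579, 1857 and 1585 RPM in mCtx, against 0, 67.9 and 50.4 RPM in mESC (adjusted p = 2.42e-06). miR-124-3p, the most neuron-specific of the list, had 308, 731 and 749 RPM in mCtx and was at 0 in mESC and in mNPC. miR-137-3p had 119, 169 and 180 RPM in mCtx and was at 0 in mESC and in mNPC. miR-129-5p, at its chromosome 2 site, had 282, 93.6 and 113 RPM in mCtx and was likewise at 0 in both other cell types. miR-138-5p, which acts at dendritic spines, had 478, 337 and 484 RPM in mCtx, against 63.4, 67.9 and 44.1 RPM in mESC (2.87 ± 0.83, limma adjusted p = 0.00733), a call lost with medians equalised (adjusted p = 0.479).

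In the miR-10/99/100/125 family, 7 of 12 tested entries were higher and 2 lower. miR-125b-5p had 5521, 18491 and 15194 RPM in mCtx and was at 0 in every mESC library (chr16:77646279-77646300; limma adjusted p = 8.61e-11). miR-99a-5p had 1998, 3414 and 2952 RPM in mCtx and miR-100-5p had 77.3, 494 and 384 RPM, both at 0 in mESC. The entries called lower were miR-10a-5p and miR-10b-5p, miRNAs of the Hox clusters that mark the trunk, at 0 in mCtx, against 245 ± 156 and 142 ± 22.3 RPM in mESC. miR-125a-5p did not overlap between the groups, with 4984, 14423 and 12583 RPM in mCtx, against 1783, 1065 and 1052 RPM in mESC, but missed the threshold (2.94 ± 1.64, adjusted p = 0.167). It was called by limma with the 6 libraries fitted alone (adjusted p = 0.00556), with values raised to a common floor (0.00683) and with 10 RPM added before the log (0.0402).

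**Figure D3:**
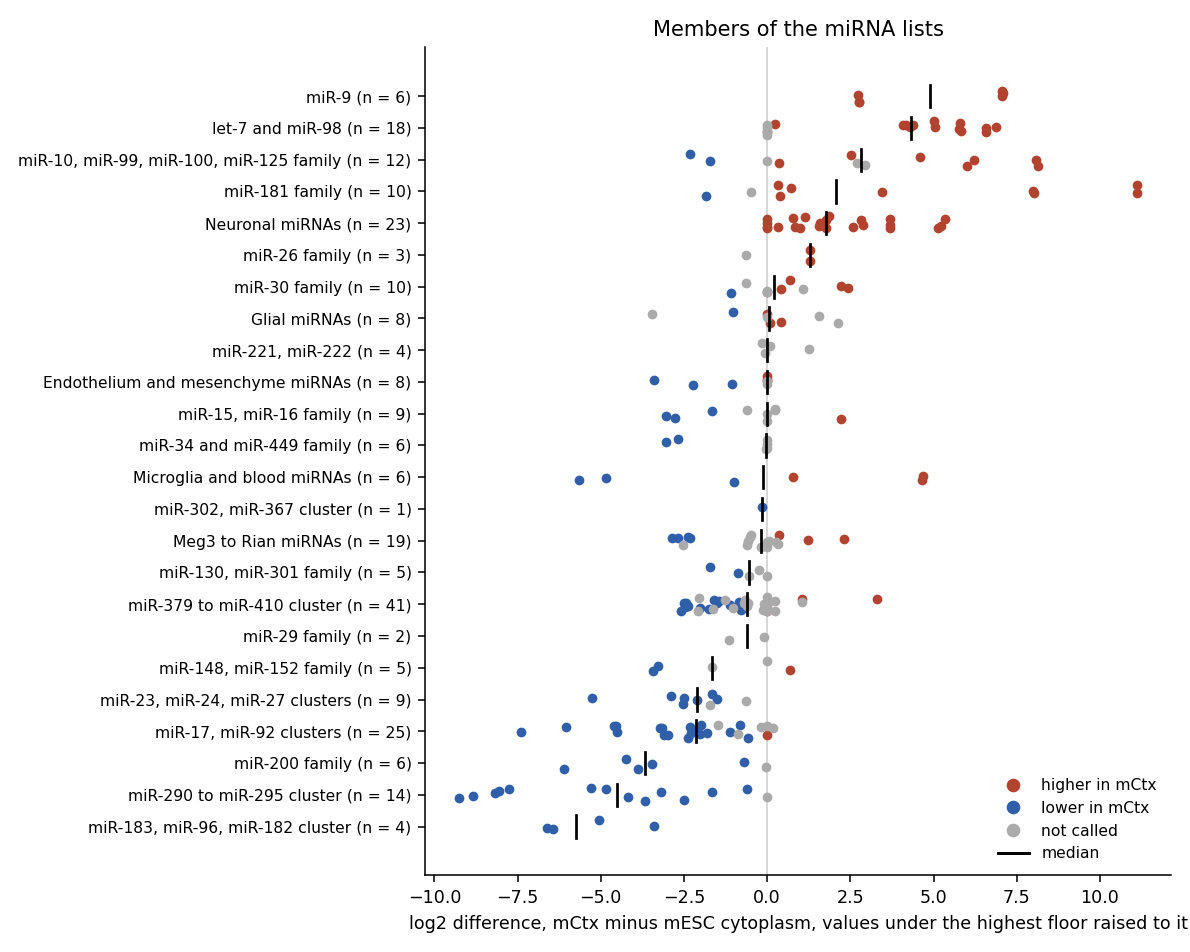
Log2 difference, mCtx minus mESC cytoplasm, of each tested member of the miRNA lists, after values below 42.4 RPM, the highest floor of the 6 libraries, were raised to it; colours give the limma call and black bars the median. The lists run from miR-9, let-7 and miR-10/99/100/125 at the top to miR-17/92, miR-200, miR-290 to miR-295 and miR-183/96/182 at the bottom, against a median of 0 over all 851 entries.

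The mature miRNAs with a RefSeq sequence, 366 of the 420 names, were also summed by seed. Names without such a sequence, miR-30d-5p among them, entered no sum. On these sums, 159 of 255 families (62.4%) were called, 88 higher (34.5%) and 71 lower (27.8%). The 5 named families that were highest in mCtx by the floor-raised difference were those of miR-9-5p, miR-125b-1-3p, let-7 with miR-98, miR-132-3p with miR-212-3p, and miR-128-3p. The 5 lowest were those of the CUCAAAC and AAGUGCU seeds, miR-293-3p, miR-182-5p, and the AAUACUG seed of miR-200b, miR-200c and miR-429. The let-7 seed summed to 67352 ± 15068 RPM in mCtx and 1235 ± 299 RPM in mESC, and the AAGUGCU seed to 0 in mCtx and 28259 ± 4643 RPM in mESC (SD, n = 3 each). Among the names summed, 3 seeds held members called in both directions, and members of these seeds are shown because the seed does not tell them apart.
miR-181a-5p: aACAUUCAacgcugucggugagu
miR-181b-5p: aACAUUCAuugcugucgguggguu
miR-181c-5p: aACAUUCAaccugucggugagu
miR-181d-5p: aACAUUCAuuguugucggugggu
miR-148a-3p: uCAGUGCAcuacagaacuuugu
miR-148b-3p: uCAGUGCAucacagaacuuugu
miR-30a-5p: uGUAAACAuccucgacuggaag
miR-30e-5p: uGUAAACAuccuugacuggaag
miR-384-5p: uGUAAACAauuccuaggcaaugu

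With positions counted from 1 at the 5′ end, miR-181d-5p differs from miR-181b-5p by C12U over the 23 positions both have, the first base of each change being that of the member named second here. miR-181a-5p and miR-181b-5p are encoded in pairs on chromosomes 1 and 2, and miR-181b-5p, at its chromosome 1 site, had 14144, 8891 and 9708 RPM in mCtx and was at 0 in mESC (limma adjusted p = 7.83e-20). miR-181c-5p and miR-181d-5p, encoded together on chromosome 8 in an intron of Nanos3, did not follow. miR-181d-5p had 1184, 683 and 946 RPM in mCtx, against 2167, 3757 and 4360 RPM in mESC (log2 difference -1.84 ± 0.26 SE, adjusted p = 4.21e-06), a call lost with medians equalised (adjusted p = 0.14). miR-181c-5p was the main member in mESC and overlapped between the groups, with 7390, 10825 and 12901 RPM in mCtx and 14814, 12492 and 15408 RPM in mESC (-0.49 ± 0.20, adjusted p = 0.0518). It was called lower by limma in 5 other settings, among them with miRNA totals equalised (adjusted p = 0.00132) and with listed totals equalised (0.00462). miR-181c-3p, the other arm of its hairpin, was called higher, with 4369, 3227 and 3655 RPM in mCtx, against 1766, 2430 and 2737 RPM in mESC (0.71 ± 0.22, adjusted p = 0.0114). That call was lost without mCtx library 1 or mESC library 1 (adjusted p = 0.0572 and 0.0801), and the direction turned with medians equalised (-0.26).

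miR-148b-3p differs from miR-148a-3p by C9U and U10C. miR-148a-3p had 2475, 1067 and 1209 RPM in mCtx, against 16850, 12917 and 13368 RPM in mESC (log2 difference -3.28 ± 0.25 SE, limma adjusted p = 3.83e-10). miR-148b-3p went the other way with 1274, 1588 and 1596 RPM in mCtx, against 926, 683 and 1225 RPM in mESC (0.69 ± 0.19, adjusted p = 0.00516), though its direction turned with medians equalised (-0.29) and its call was lost with the 6 libraries alone (adjusted p = 0.119). In mCtx the members were thus of similar level, while in mESC miR-148a-3p held most of the seed's reads.

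miR-30e-5p differs from miR-30a-5p by C13U alone. miR-30e-5p had 4653, 6745 and 8523 RPM in mCtx, against 12706, 13244 and 14917 RPM in mESC (log2 difference -1.08 ± 0.23 SE, limma adjusted p = 0.000673), a call lost with medians equalised (adjusted p = 0.269). miR-30a-5p had 24502, 11919 and 16914 RPM in mCtx, against 10692, 10663 and 10186 RPM in mESC (0.70 ± 0.23, adjusted p = 0.0161). That limma call was lost without mCtx library 1 (0.43, adjusted p = 0.137), with the 6 libraries alone and with miRNA totals or listed totals equalised (adjusted p of 0.0744 to 0.139), and its direction turned with medians equalised (-0.27). miR-384-5p, an activity-linked neuronal member, had 130, 249 and 281 RPM in mCtx and was at 0 in mESC. miR-30d-5p, of the same family, had the largest difference of the abundant members, with 17262, 20465 and 21934 RPM in mCtx, against 3920, 3451 and 3576 RPM in mESC (2.44 ± 0.15, adjusted p = 1.05e-11), although it too was not called with medians equalised (adjusted p = 0.497).

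**Figure D4:**
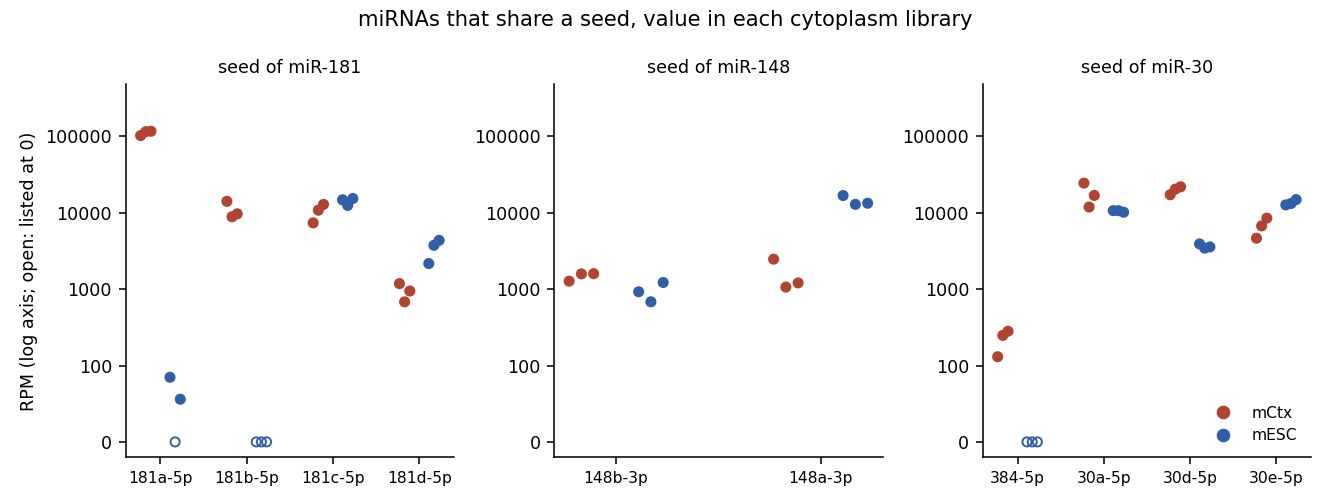
RPM on a log axis of members of 3 seeds in each mCtx and mESC cytoplasm library; open circles mark libraries listed at 0. miR-181a-5p and miR-181b-5p are high in mCtx while miR-181d-5p is lower in mCtx than in mESC, and miR-148a-3p and miR-30e-5p lie lower in mCtx beside miR-148b-3p, miR-30a-5p and miR-30d-5p, which lie higher.

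The arms of a hairpin were seldom called in opposite directions. Of 88 hairpins with both arms tested, 16 had both arms higher, 20 had both lower, 22 had neither called, 27 had 1 arm called, and 3 had the arms called in opposite directions. These were miR-30e, miR-376b and miR-431. Genomic copies were counted one by one, so miR-9 and miR-124 enter the hairpins with both arms higher more than once, with nearly the same reads. miR-431-5p had 280, 288 and 301 RPM in mCtx, against 1243, 1477 and 1587 RPM in mESC (log2 difference -2.30 ± 0.22 SE, limma adjusted p = 1.26e-08). miR-431-3p had 212, 174 and 203 RPM in mCtx, against 0, 97.6 and 139 RPM in mESC (adjusted p = 0.0253), and that call was lost without any 1 of the 3 mCtx libraries or mESC library 1 (adjusted p of 0.0507 to 0.0610) or with the 6 fitted alone (adjusted p = 0.339). For miR-30e and miR-376b the arm called higher was at 0 in mESC and no higher than 62.4 RPM in mCtx.

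The imprinted miRNAs of the Dlk1-Dio3 domain on chromosome 12 were abundant in both cell types and near 0 in mNPC cytoplasm. Those between Meg3 and Rian summed to 60774, 38211 and 43989 RPM in mCtx and to 26398, 44879 and 43069 RPM in mESC, with 0 to 79.1 RPM in mNPC, and those of the miR-379 to miR-410 cluster summed to 49514, 31082 and 35168 RPM in mCtx and to 40870, 67411 and 64105 RPM in mESC. Single members were called in both directions. Of all entries tested 21.0% were called higher and 24.4% lower, and of the mature miRNA entries 34.2% and 27.9%. Of the 19 tested between Meg3 and Rian 3 were higher and 4 lower, and of the 41 tested from miR-379 to miR-410 7 were higher and 13 lower. Without mCtx library 1 the miR-379 to miR-410 cluster had 7 higher and 10 lower.

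Of these imprinted miRNAs, miR-434-3p, antisense to Rtl1, had 20954, 6619 and 8275 RPM in mCtx, against 1884, 2768 and 1861 RPM in mESC (log2 difference 2.29 ± 0.31 SE, limma adjusted p = 2.43e-06). miR-410-3p had 25001, 14925 and 15583 RPM in mCtx, against 6423, 10552 and 9451 RPM in mESC (1.06 ± 0.20, adjusted p = 0.000176). miR-487b-3p had 519, 1283 and 1263 RPM in mCtx, against 0, 127 and 161 RPM in mESC (adjusted p = 0.000798, but 0.143 with the 6 libraries alone). Against these, miR-134-5p, which limits dendritic spine size, was lower, with 153, 85.7 and 112 RPM in mCtx, against 413, 756 and 847 RPM in mESC (-2.49 ± 0.30), and miR-758-3p had 404, 417 and 415 RPM in mCtx, against 1400, 3158 and 2449 RPM in mESC (-2.42 ± 0.30). The calls on miR-434-3p, miR-410-3p, miR-487b-3p, miR-134-5p, miR-758-3p and miR-431-5p were lost with medians equalised. miR-541-5p and miR-411-5p, abundant in mESC, did not overlap between the groups, with 5075 ± 940 and 6160 ± 1535 RPM in mCtx and 21300 ± 5683 and 14790 ± 3429 RPM in mESC, but missed the limma threshold (adjusted p = 0.311 and 0.706). Both were called lower with values raised to a common floor (adjusted p = 1.06e-07 and 0.0013) and with the 6 libraries fitted alone (0.00238 and 0.0187).

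Further miRNAs were called higher in mCtx. miR-488-3p, from an intron of Astn1, had 864, 478 and 590 RPM in mCtx and miR-204-5p, from an intron of Trpm3, had 404, 346 and 455 RPM, both at 0 in mESC. Of the miR-26 family, miR-26a-5p, from an intron of Ctdsp2, was called higher although the groups touched, with 8165, 25850 and 24272 RPM in mCtx and 8202, 6072 and 7051 RPM in mESC (log2 difference 1.29 ± 0.36 SE, limma adjusted p = 0.00554), and the call was lost with medians equalised (adjusted p = 0.832) or the 6 libraries alone (adjusted p = 0.115). In the miR-15 and miR-16 family 1 of 9 tested entries was called higher and 3 lower, against 3 higher and 2 lower without mCtx library 1. Of all mature miRNA entries tested, 34.2% were called higher and 27.9% lower. miR-16-5p overlapped, with 5135, 11036 and 10500 RPM in mCtx and 7951, 6823 and 6797 RPM in mESC (0.23 ± 0.21), a direction that turned with medians equalised (-0.74) or miRNA totals equalised (-0.07), and was called higher without mCtx library 1 (0.59, adjusted p = 0.00324).

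Hairpin entries gave 2 higher (11.8%) and 3 lower (17.6%) calls of 17 tested, against 21.0% and 24.4% of all entries tested. The hairpin of miR-532, in an intron of Clcn5, had 1658, 974 and 1019 RPM in mCtx, against 411, 357 and 283 RPM in mESC (log2 difference 1.77 ± 0.27 SE, limma adjusted p = 1.35e-05; not called with medians equalised, adjusted p = 0.695). The hairpin entry of miR-34a was at 0 in mCtx, against 270, 259 and 286 RPM in mESC, and that of miR-871 was at 0 in mCtx, against 276, 67.9 and 69.3 RPM in mESC, a limma call lost with values raised to a common floor (adjusted p = 0.114). The mCtx libraries listed miR-21a under different entries. The hairpin entry had 3451, 0 and 0 RPM in mCtx and the entry of miR-21a-5p had 0, 3129 and 2743 RPM, while mESC had 0 in the hairpin and 7075, 6847 and 9842 RPM in the 5p arm. Their sum was 3451, 3129 and 2743 RPM in mCtx, so library 1 matched the others in total, and neither entry alone was called by limma (adjusted p = 0.42 for the hairpin and 0.155 for the arm).

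Markers of other cells were checked as whole lists, which hold only the names that have an entry. Over all mature miRNA entries tested, 34.2% were called higher and 27.9% lower. Of 8 tested glial entries 3 were higher and 1 lower, and with values raised to a common floor 0 were higher and 0 lower. The sum of the mature forms of this list was 450, 3873 and 3541 RPM in mCtx and 7534, 6959 and 10340 RPM in mESC. Outside mCtx library 1 most of it was miR-21a-5p, with 0, 3129 and 2743 RPM in mCtx and 7075, 6847 and 9842 RPM in mESC. That sum leaves out the hairpin entry of miR-21a, which held 3451 RPM in mCtx library 1, where miR-21a-5p was at 0. miR-219a-5p, the miRNA of oligodendrocytes, was at 0 in all 6 libraries, and miR-338-3p, of oligodendrocytes and neurons, had 0, 53.1 and 80.6 RPM in mCtx and 0 in mESC, a limma call (adjusted p = 0.0237) lost without any 1 of 5 libraries, all but mCtx library 1 (adjusted p of 0.0515 to 0.144). Of 6 entries of microglia and blood 3 were higher and 3 lower, or 2 and 3 with values raised to a common floor. The red cell miRNA miR-486a-5p had 1366, 970 and 958 RPM in mCtx and was at 0 in mESC. The other arm, miR-486a-3p, had 60.6, 102 and 60.5 RPM in mCtx and was at 0 in mESC, so both arms of this hairpin were among the 3 called higher. The lymphocyte miRNA miR-150-5p was at 0 in mCtx, against 1835, 2139 and 2430 RPM in mESC, and miR-142a-5p, of all blood lineages, had 0, 33.5 and 44.5 RPM in mCtx, against 1477, 1647 and 778 RPM in mESC. miR-142a-3p was at 0 in mCtx as well. The sum of that list ran from 2014 to 2781 RPM in mCtx and from 3240 to 3914 RPM in mESC.

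Of 8 tested entries of endothelium and mesenchyme 3 were higher and 3 lower, against 34.2% and 27.9% of all mature miRNA entries tested. The list summed to 2327 to 3079 RPM in mCtx and 5607 to 7594 RPM in mESC. The endothelial miR-126a-5p, from Egfl7, had 93.2, 77.3 and 134 RPM in mCtx, against 1220, 1074 and 841 RPM in mESC (log2 difference -3.37 ± 0.92 SE, limma adjusted p = 0.0048). The smooth muscle miRNA miR-143-3p had 2927, 2146 and 2225 RPM in mCtx, against 6058, 4567 and 4631 RPM in mESC (-1.07 ± 0.25, limma adjusted p = 0.0012; not called with medians equalised, adjusted p = 0.309). The 3 entries called higher were both copies of miR-199a-3p and miR-199b-3p, at 29.2 to 40.3 RPM in mCtx, against 34.9, 0 and 0 RPM in mESC. These levels lie near the mESC floors, and with values raised to a common floor 0 entries of the list were higher and 3 lower. The part of other cells in the results above was not tested.

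tRNA entries differed by isotype. Of 159 tested, 35 were higher and 53 lower, 38 were higher and 39 lower without mCtx library 1, and 29 were higher and 19 lower with the 6 libraries fitted alone, so the balance of the calls depends on the fit. Copies of a tRNA carry nearly the same reads, so these counts are of entries and not of independent genes. Gly entries were higher in 14 of 22 and lower in 6, Val entries higher in 9 of 17 and lower in 5, while Lys entries were lower in 11 of 18, Cys in 7 of 7, Ser in 9 of 12 and Glu in 8 of 15, with none higher. All 11 Lys calls were on entries above 0 in all 6 libraries, and 0 of the Cys, Ser and Glu calls were. The 8 entries of the initiator tRNA iMet were not called.

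Within Gly and Val the entries of 1 isotype went both ways. tRNA-Gly-GCC-2-1 had 1436, 1356 and 1581 RPM in mCtx, against 441, 605 and 376 RPM in mESC (chr1:171044985-171045055; log2 difference 1.64 ± 0.33 SE, limma adjusted p = 0.000287). tRNA-Gly-GCC-1-1, with the same anticodon, had 478, 288 and 394 RPM in mCtx, against 1022, 803 and 489 RPM in mESC (-0.96 ± 0.34, adjusted p = 0.0244), a call lost without mCtx library 2, mESC library 1 or mESC library 2 (adjusted p of 0.0702 to 0.125). tRNA-Gly-CCC-2-1 had 408, 314 and 328 RPM in mCtx and was at 0 in mESC, while tRNA-Gly-CCC-4-1 had 205, 131 and 169 RPM in mCtx, against 893, 1003 and 682 RPM in mESC (-2.35 ± 0.39, adjusted p = 3.22e-05). tRNA-Val-CAC-2-1 was the most abundant of those named, with 5412, 8869 and 7785 RPM in mCtx, against 4429, 2746 and 2229 RPM in mESC (1.26 ± 0.38, adjusted p = 0.00888; 1.05 and 0.0502 without mESC library 3). With medians equalised none of tRNA-Gly-GCC-2-1, tRNA-Gly-GCC-1-1, tRNA-Gly-CCC-4-1 and tRNA-Val-CAC-2-1 was called, and over all tRNAs 9 were higher and 25 lower.

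tRNA-Lys-CTT-2-1 had 567, 1197 and 1061 RPM in mCtx, against 3850, 3893 and 2542 RPM in mESC (log2 difference -1.91 ± 0.35 SE, limma adjusted p = 0.000125). tRNA-Lys-TTT-2-1 had 62.9, 93.5 and 68.7 RPM in mCtx, against 342, 560 and 485 RPM in mESC (-2.60 ± 0.49). tRNA-Glu-CTC-1-7 split the mCtx libraries, with 871, 0 and 0 RPM in mCtx, against 1681, 1319 and 919 RPM in mESC (adjusted p = 0.00298, but 0.135 with the 6 libraries alone). The calls on these Lys entries held without any single library and were lost with medians equalised (limma adjusted p = 0.108 for tRNA-Lys-CTT-2-1 and 0.0908 for tRNA-Lys-TTT-2-1). Of 28 tRNA fragment entries 1 was higher (3.57%) and 7 were lower (25.0%), against 21.0% and 24.4% of all entries tested. tRNA-His-GTG-1-1-tRF5 was at 0 in mCtx, against 102, 105 and 120 RPM in mESC, and tRNA-Thr-AGT-6-1-tRF5 had 0, 17.4 and 0 RPM in mCtx, against 150, 743 and 1171 RPM in mESC.

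With all libraries fitted, every call on rRNA and snRNA entries was lower in mCtx cytoplasm. Of 14 rRNA entries 11 were lower (78.6%) and none higher, and of 25 snRNA entries 9 were lower (36.0%) and none higher. Of all entries tested, 24.4% were lower and 21.0% higher. Without mCtx library 1, 10 rRNA entries were lower and none higher, and 9 snRNA entries were lower and 1 was higher. The largest rRNA entry, Rn18s-rs5 at chr17:39846353-39848201, was at 0 in mCtx, against 11808, 19844 and 16229 RPM in mESC (limma adjusted p = 1.79e-07). The 5S entry n-R5s2 had 0, 0 and 227 RPM in mCtx, against 2481, 2770 and 3201 RPM in mESC (limma adjusted p = 0.0168), and its call was lost without mCtx library 1 or 2 (0.0750 and 0.0743). Rnu12, the U12 snRNA of the minor spliceosome, was at 0 in mCtx, against 99.2, 57.3 and 105 RPM in mESC, with the same values as Gm24525. Rnu5g and Gm24871 were at 0 in mCtx and averaged 174 ± 40.3 and 175 ± 67.6 RPM in mESC, limma calls that were lost when values were raised to a common floor (adjusted p = 0.164 and 0.163). Rnu7, which trims histone messenger RNA, had 0, 0 and 17.5 RPM in mCtx, against 84.7, 102 and 67.7 RPM in mESC.

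Of 196 snoRNA entries tested 161 were at 0 in all 6 cytoplasm libraries. Calls were higher in 2 (1.02%) and lower in 10 (5.1%), against 21.0% and 24.4% of all entries tested. Snord69, from the Gnl3 gene, had 24.2, 32.6 and 33.6 RPM in mCtx, against 402, 407 and 428 RPM in mESC (log2 difference -3.75 ± 0.27 SE, limma adjusted p = 1.83e-10). Snord49a had 0, 10.2 and 14.3 RPM in mCtx, against 846, 454 and 388 RPM in mESC, and Snord93 was at 0 in mCtx, against 358, 231 and 164 RPM in mESC. The snoRNAs called higher, Snord64 and Snord85, had at most 36.9 RPM in mCtx and were at 0 in mESC, where the floors would hide such levels. Among 11 piRNA entries 2 were higher (18.2%) and 3 lower (27.3%), against 21.0% and 24.4% of all entries tested. mmu_piR_011982 had 0, 15.2 and 12.7 RPM in mCtx, against 2831, 3636 and 2367 RPM in mESC (limma adjusted p = 5.45e-06), and mmu_piR_000362 had 330, 326 and 212 RPM in mCtx and was at 0 in mESC.

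The difference between the cell types was not the same in every fraction. In an interaction contrast, the mCtx minus mESC difference in cytoplasm less that in chromatin, 361 of 851 entries (42.4%) were called, 171 positive (20.1%) and 190 negative (22.3%). With medians equalised 20 were positive and 74 negative, and with miRNA totals equalised 220 and 122, so the split depends on how libraries are scaled. Among entries above 0 in all 12 libraries, the named positive ones were tRNAs for Gly and the named negative ones were miR-30e-5p, miR-301a-3p and miR-136-3p. miR-30e-5p averaged 6640 ± 1937 RPM in mCtx and 13622 ± 1153 RPM in mESC cytoplasm, but 13042 ± 445 RPM in mCtx and 3544 ± 803 RPM in mESC chromatin (SD, n = 3 each), an interaction of -2.98. Over those libraries miRNA made up 73.3 to 75.7% of the listed RPM in mCtx chromatin and 24.7 to 30.4% in mESC chromatin. With miRNA totals equalised the interaction of miR-30e-5p was -1.74, still called by limma, that of miR-301a-3p was -1.63 and that of miR-136-3p was -1.45.

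**Figure D5:**
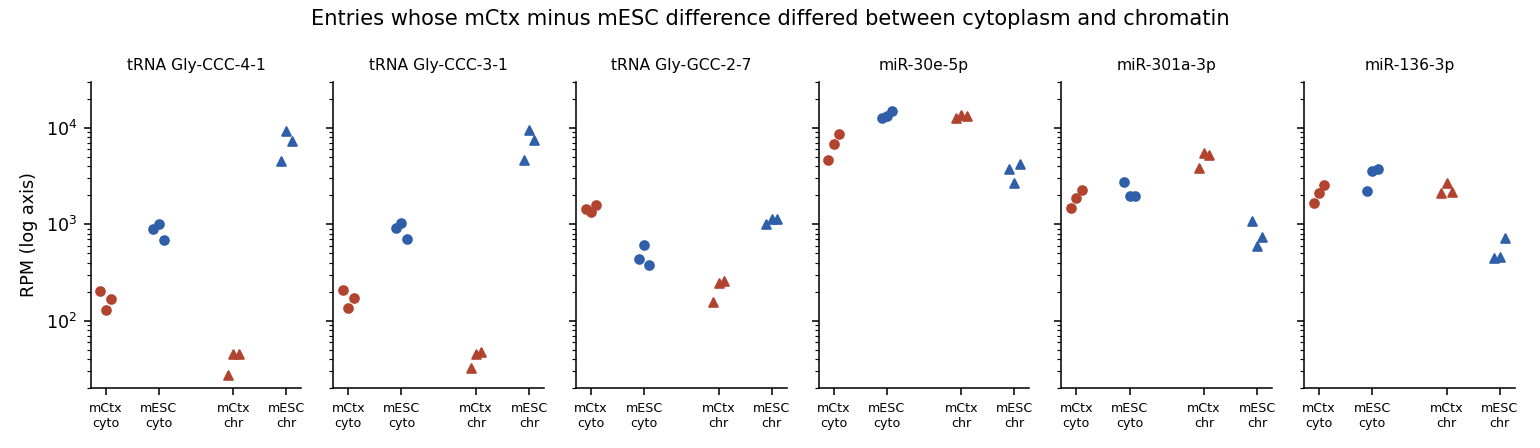
RPM on a log axis of the 6 entries named for the largest interaction, in each library of mCtx and mESC cytoplasm (circles) and chromatin (triangles). tRNA-Gly-CCC-4-1 and tRNA-Gly-CCC-3-1 are lower in mCtx in both fractions and by more in chromatin, while miR-30e-5p is lower in mCtx in cytoplasm and higher in mCtx in chromatin.

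The mNPC line, for orientation, shared some of these features with mCtx. The miR-290 to miR-295 and miR-183/96/182 members were at 0 there, let-7 and miR-98 summed to 109820 ± 13140 RPM, and miR-9 to 35276 ± 2493 RPM, against 67426 ± 15040 and 30718 ± 13722 RPM in mCtx (SD, n = 3 each). miR-181a-5p had 31440, 39157 and 38057 RPM and miR-128-3p, at the Arpp21 site, 344, 428 and 408 RPM in mNPC. The neuronal list as a whole summed to 10182, 18247 and 18681 RPM in mCtx and 1136 ± 135 RPM in mNPC, against 421 ± 84.6 RPM in mESC.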

How the data were processed

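The authors deposited one small RNA table with values in RPM, reads per 1000000, for 1013 entries and 27 libraries. Per the labels' protocols, RNA under 200 nt was selected and rRNA removed before library preparation. Which aligner, assignment rule and RPM denominator the authors used is not given in the sources used here. Names with several genomic copies were kept as separate entries. limma 3.58.1 in R 4.3.3 was fitted to log2(RPM + 1) over all 27 libraries in 9 groups, with trend and robust variances and 18 residual degrees of freedom, on entries with 1 RPM in 3 libraries, and p-values were adjusted by Benjamini-Hochberg over all of them. The fits were checked on simulated data. Class shares had exact permutation tests. RPM hold no counts, and the low values were whole reads too seldom for a count test, so intervals from depth are not given.

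The miRNA lists and members were chosen with earlier results of these data known. Named entries were the 10 mature miRNAs called each way with the largest difference after raising values to 42.4 RPM among those without overlap, up to 3 each way in each other class, the 10 highest of each group, list members, 3 interactions each way and 5 seed families each way. Other named entries were chosen after their values were seen. Alternatives changed the pseudocount, filter, scaling, libraries fitted and variance model. Averaging genomic copies was added after seeing the data.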

Additional observations from a re-analysis of the deposited data

Results flagged for a closer look

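For 6 entries the mCtx minus mESC difference itself differed between cytoplasm and chromatin, by the limma interaction term on log2(RPM + 1). tRNA-Gly-CCC-4-1 had an interaction of 5.07, with 168 ± 36.9 RPM in mCtx and 859 ± 163 RPM in mESC cytoplasm, and 39.3 ± 9.96 RPM in mCtx and 7017 ± 2335 RPM in mESC chromatin (SD, n = 3 each). tRNA-Gly-CCC-3-1, a near copy, had 5.00. tRNA-Gly-GCC-2-7 had 3.99, with 1458 ± 114 RPM in mCtx and 473 ± 121 RPM in mESC cytoplasm, and 221 ± 56.9 RPM in mCtx and 1096 ± 82.4 RPM in mESC chromatin. miR-30e-5p had -2.98. miR-301a-3p had -2.88, with 1872 ± 379 RPM in mCtx and 2221 ± 472 RPM in mESC cytoplasm, and 4854 ± 898 RPM in mCtx and 799 ± 248 RPM in mESC chromatin. miR-136-3p had -2.69, with 2104 ± 431 RPM in mCtx and 3160 ± 824 RPM in mESC cytoplasm, and 2315 ± 305 RPM in mCtx and 541 ± 153 RPM in mESC chromatin. None of the 6 was called with library medians equalised, and with miRNA totals equalised the 3 miRNAs had -1.74, -1.63 and -1.45.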

How the results depend on the processing

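With library medians equalised, 237 entries were called, 90 of them higher, and the interaction gave 94, 20 positive and 74 negative; with miRNA totals equalised the negative interactions were 122. Limiting the table to entries above 0 in all 6 libraries leaves 229 to test and gave 123 calls, 47 higher and 76 lower, with 127 interactions, 42 positive and 85 negative, and 47 seed families, 15 higher and 32 lower. Seed families called higher numbered 48 with a common floor and 52 with the 6 libraries alone. Summing each hairpin with its arms gave 84 of 280 miRNA names called higher, against 139 of 418 entries. The tRNA share differed by 0.0134 percentage points as a share of a full 1000000 RPM and by 2.51 with copies averaged, against -1.63, and leaving out single libraries it ran from -3.85 to 0.913, while the hairpin share ran from -0.0155 to 0.179. Directions that turned with medians equalised were those of miR-127-3p (-0.71), miR-148b-3p (-0.29), miR-16-5p (-0.74), miR-181c-3p (-0.26) and miR-30a-5p (-0.27), and with miRNA totals equalised those of miR-127-3p (-0.036) and miR-16-5p (-0.070). Medians were taken with 0s included, so equalising them also carries how many entries a library lists at 0. The causes were not tested. Leaving out 1 library gave 353 to 370 calls. Of 2615 values of 150 single results, 2489 kept direction and call, 88 lost the call, 31 gained one and 7 turned.

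Equal replicate numbers did not pair the mCtx with the mESC cytoplasm libraries (r of deviations -0.02, -0.12 and 0.01). A block of replicate number, shared by all cell types, gave 388 calls, 179 higher and 209 lower, 159 seed families and 359 interactions. Whether cytoplasm and chromatin libraries of equal number came from the same culture was not checked, and no block within each cell type was fitted. Depth limits absence: no mESC cytoplasm library held a value between 0 and 27.6 RPM.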
